A study of Rattus norvegicus with 26 samples.

Results

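The potassium channel genes were followed in the aorta, from the thorax, of male rats of the spontaneously hypertensive strain, which is inbred and develops high blood pressure with age. The members were the gene probes whose transcript accession maps to a rat symbol beginning with Kcn, which gave 117 probes for 90 genes among 30367 gene probes on the array. Rats were given 1 of 4 treatments by mouth for 4 weeks. They received Songling Xuemaikang capsule (SXC), a Chinese herbal medicine used for hypertension, at 236.25 mg per kg (low dose, 6 arrays) or 708.75 mg per kg (high dose, 6 arrays), valsartan, an antihypertensive drug that blocks angiotensin receptors, at 21.6 mg per kg (6 arrays), or saline at 7.5 mL per kg (8 arrays). All of these groups were hypertensive rats of the same strain and sex, so saline stands for hypertension without a drug and no normotensive strain was compared here. The study's design gives 8 rats for valsartan, of which 6 arrays were analysed here, and the labels give no age. Aortas were taken on day 28, and each array carried RNA labelled as extracted separately.

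Potassium channels let potassium leave the cell and thereby hold the membrane of arterial smooth muscle at a negative voltage, which keeps voltage-gated calcium channels shut and the vessel relaxed. Large-conductance calcium-activated channels (the BK channel, with its pore subunit encoded by Kcnma1) and delayed rectifiers such as the one encoded by Kcna5 open when the muscle cell depolarises, and ATP-sensitive channels (Kcnj8 with the sulfonylurea receptor Abcc9) open when ATP falls. Silent subunits carry no current alone and change the channels they join, while accessory subunits set gating and traffic of the pore-forming ones. In bulk tissue such as this, fewer cells of a type and less RNA per cell cannot be told apart.

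A level is log2 of the processed array signal minus that array's 75th percentile, so 0 is the 75th percentile of the array and levels of different probes are not compared with each other. Probes that the scanner software marked as well above background on 20 or more of 26 arrays are called steady here. There were 44 steady Kcn probes for 37 genes, 39 fainter probes that were tested because at least 6 arrays showed them above background, and 34 that were too faint to test. All 44 steady probes were above background on every saline and every low-dose array, but 17 of them on every high-dose array and 17 on every valsartan array, so passing the rule is no support for any difference. Just inside the rule, on 20 arrays, were the probes for Kcnh1, Kcnj9 and a second probe for Kcnh3, and just outside it, on 19 arrays, were those for Kcnb2 and Kcnk5. Of the 90 genes, 23 had no tested probe and 14 probes were above background on no array.

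The arrays differed in quality in a way that followed the groups. Probes above background made up 70.0% to 77.0% of gene probes on the low-dose arrays, 28.7% to 79.3% on the high-dose arrays, 32.4% to 56.5% on the valsartan arrays and 67.3% to 76.2% on the saline arrays. All valsartan arrays and high-dose arrays 3 to 6 had been scanned at a lower detector gain than the other 16 arrays. The saline arrays were scanned alone, 82 days after the last treated array, on slides of their own, so slide, scan day and saline cannot be told apart. Within saline, deviations were taken from the mean of the saline arrays on the same slide. Those of arrays 1 and 5, 2 and 6, and 3 and 7 correlated over probes at r = 0.713, 0.66 and 0.872, while arrays 4 and 8 gave -0.032. Whether the 8 saline arrays come from 8 separate animals was not tested, and results were also computed with saline reduced to 3 averages. These averages were of arrays 1 and 5, 2 and 6, and 3 and 7, and arrays 4 and 8 were left out.

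The tissue carried the markers of its label. Each of the 11 smooth muscle markers with a probe was above background on at least 1 array of each group, and their summed level (log2 of the sum of their signals, scaled as above) ran from 8.31 to 8.65 after low-dose SXC, from 7.92 to 8.50 after high-dose SXC, from 7.87 to 8.39 after valsartan and from 7.10 to 8.63 after saline. Of these 11 markers, 4 rose and 2 fell after low-dose SXC, 3 rose and 3 fell after high-dose SXC, and 4 rose and 3 fell after valsartan. Of all tested probes 22.5%, 35.7% and 33.2% rose and 17.1%, 21.4% and 25.2% fell after low-dose SXC, high-dose SXC and valsartan. These shares also stand beside the counts of other markers below. Markers of other cells moved with treatment. Macrophage markers fell in 8, 8 and 9 of 10 in that order of treatments, endothelial markers fell in 7, 7 and 6 of 9 (1 rose in each), white fat markers in 6 of 7 each time, red cell markers in 6, 5 and 5 of 6, and fibroblast markers in 3 of 5 each time. Brown fat markers fell in 2, 1 and 4 of 6, with 1 higher after high-dose SXC and 1 after valsartan. Of 4 tested T cell markers, 0, 3 and 2 rose and none fell. Of 6 skeletal muscle markers, 1, 2 and 2 rose and 1, 3 and 2 fell. The summed red cell level ran from 3.19 to 4.98 after low-dose SXC, from 2.13 to 4.43 after high-dose SXC, from 2.48 to 4.21 after valsartan and from 7.87 to 9.35 after saline, with no overlap between saline and any treatment. The part of these cell types in the potassium channel results was not tested.

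More potassium channel probes rose than fell after each treatment, and after low-dose SXC 48 of the 83 tested were not called. After low-dose SXC, 28 of the 83 tested Kcn probes rose and 7 fell (limma, Benjamini-Hochberg adjusted p under 0.05 over all tested probes), against 39.6% of all 23744 tested probes called in either direction, with 22.5% higher and 17.1% lower. After high-dose SXC, 42 rose and 4 fell, where 57.1% of all tested probes were called, 35.7% higher and 21.4% lower. After valsartan, 42 rose and 3 fell, where 58.4% of all tested probes were called, 33.2% higher and 25.2% lower. The share of Kcn probes called was thus near the background in each comparison, and the split between higher and lower differed from it, as a description. The median log2 fold change of the 44 steady Kcn probes was 0.78, 1.37 and 1.06 after low-dose SXC, high-dose SXC and valsartan, beside 0.17, 0.12 and 0.06 over all steady probes. Among these 44, 21 rose and 1 fell after low-dose SXC, where 47.5% of all steady probes were called, 29.2% higher and 18.2% lower. After high-dose SXC 29 rose and 2 fell, where 62.1% were called, 35.9% higher and 26.2% lower. After valsartan 27 rose and 2 fell, where 64% were called, 34% higher and 30% lower. The treated and saline ranges did not overlap for 17, 22 and 16 of the 44 after low-dose SXC, high-dose SXC and valsartan, and for 36.2%, 33.6% and 36.4% of all steady probes.

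The 3 comparisons share the saline arrays, so a call in more than 1 of them is not an independent repeat. Probes above background on every array were also read apart. Of the 13 Kcn probes above background on all 26 arrays, 12 rose after low-dose SXC, 10 after high-dose SXC and 11 after valsartan, and none fell. Over all probes above background on every array, 41.6%, 38.3% and 40.3% rose in those comparisons. The median log2 fold change of these 13 was 1.62, 2.18 and 2.09, beside 0.32, 0.14 and 0.17 over all such probes. How many Kcn probes rose and fell depended on the scaling of the arrays, which also moved the median log2 fold change of all tested probes. That median was 0.09, 0.25 and 0.19 after low-dose SXC, high-dose SXC and valsartan with the 75th percentile, and 0.01, -0.23 and -0.30 after quantile normalisation. With quantile normalisation 21 Kcn probes rose and 7 fell after low-dose SXC, 31 rose and 12 fell after high-dose SXC, and 26 rose and 11 fell after valsartan, while 54%, 41.7% and 38.1% of the calls over all probes were rises.

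**Figure D1:**
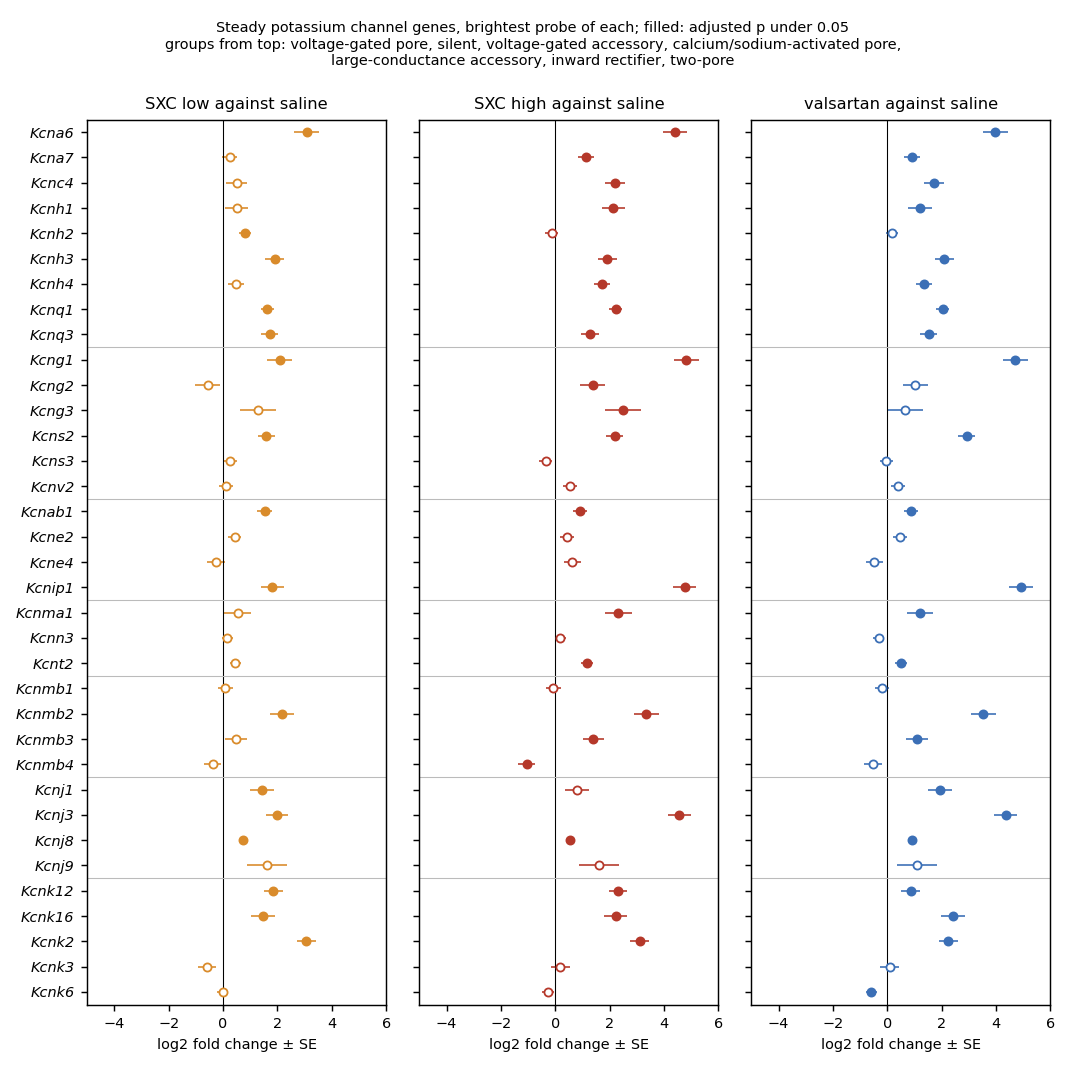
Log2 fold change against saline (horizontal axis, with its standard error) of the brightest probe of 35 of the 37 potassium channel genes with a steady probe, in 1 panel per treatment (low-dose SXC, high-dose SXC, valsartan). Filled points passed the test. Of the 35 genes drawn, 16 rose and 0 fell after low-dose SXC, 23 rose and 1 fell after high-dose SXC, and 22 rose and 1 fell after valsartan.

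The voltage-gated pore subunits, which form the channels that open on depolarisation, had 15 steady probes. Of these, 9 rose and 1 fell after low-dose SXC, 12 rose and 1 fell after high-dose SXC, and 11 rose and 1 fell after valsartan. Over all steady probes 29.2%, 35.9% and 34% rose and 18.2%, 26.2% and 30% fell, which also stands beside the counts by role below. Kcna6, a Shaker-related delayed rectifier best known from neurons, showed the largest rise of the steady voltage-gated pore subunits. Its level ran from -1.83 to 0.29 (median -0.30) after low-dose SXC, from -1.18 to 2.28 (median 0.93) after high-dose SXC, from -0.34 to 1.06 (median 0.61) after valsartan and from -5.18 to -2.50 (median -3.46) after saline. No treated array overlapped the saline range. The log2 fold change against saline (± its standard error) was 3.07 ± 0.45 (adjusted p = 4.87e-06) after low-dose SXC, 4.41 ± 0.45 (adjusted p = 1.14e-08) after high-dose SXC and 3.98 ± 0.45 (adjusted p = 4.7e-08) after valsartan. A second, fainter Kcna6 probe also rose, by 1.41 ± 0.23 (adjusted p = 2.2e-05) after low-dose SXC, 1.27 ± 0.23 (adjusted p = 4.39e-05) after high-dose SXC and 2.17 ± 0.23 (adjusted p = 2.02e-08) after valsartan.

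Kcnq1, a delayed rectifier that contributes to arterial tone and is best known from the heart, lay from 0.84 to 1.66 (median 1.34) after low-dose SXC, from 1.14 to 2.82 (median 1.74) after high-dose SXC, from 1.37 to 2.16 (median 1.73) after valsartan and from -1.02 to 0.51 (median -0.30) after saline. The treated and saline arrays did not overlap in any of the 3 comparisons. It rose by 1.62 ± 0.23 (adjusted p = 3.92e-06) after low-dose SXC, 2.22 ± 0.23 (adjusted p = 1.85e-08) after high-dose SXC and 2.04 ± 0.23 (adjusted p = 6.02e-08) after valsartan. The second Kcnq1 probe rose too, by 1.19 ± 0.34 (adjusted p = 0.00668) after low-dose SXC, 2.32 ± 0.34 (adjusted p = 2.96e-06) after high-dose SXC and 0.91 ± 0.34 (adjusted p = 0.0253) after valsartan. Kcnh3, an ether-a-go-go related channel described mostly in the brain, lay from 0.65 to 2.59 (median 2.19) after low-dose SXC, from 1.00 to 2.74 (median 2.27) after high-dose SXC, from 1.57 to 2.94 (median 2.20) after valsartan and from -0.93 to 1.34 (median 0.18) after saline. Valsartan arrays did not overlap saline, whereas some arrays of each SXC dose did. Kcnh3 changed by 1.89 ± 0.35 (adjusted p = 0.000115) after low-dose SXC, 1.92 ± 0.35 (adjusted p = 5.39e-05) after high-dose SXC and 2.09 ± 0.35 (adjusted p = 1.78e-05) after valsartan, and the valsartan call was lost with the detector gain as a block, at 1.93 (adjusted p = 0.0576). With that block Kcnq1 after valsartan was 1.18 (adjusted p = 0.0475). The second Kcnh3 probe rose by 0.81 after low-dose SXC and 0.95 after high-dose SXC and was not called after valsartan, at 0.53.

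Kcnq3, a subunit of the M channel of neurons, rose by 1.71 ± 0.33 (adjusted p = 0.000147) after low-dose SXC, 1.28 ± 0.33 (adjusted p = 0.00165) after high-dose SXC and 1.52 ± 0.33 (adjusted p = 0.000294) after valsartan. A second, faint Kcnq3 probe was not called after low-dose SXC (0.84) and rose by 2.30 after high-dose SXC and 2.81 after valsartan.

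Kcnh2, the channel of the rapid cardiac delayed rectifier current, lay from 2.66 to 2.99 (median 2.83) after low-dose SXC, from 0.73 to 2.39 (median 2.04) after high-dose SXC, from 1.52 to 2.60 (median 2.32) after valsartan and from 1.33 to 2.61 (median 2.15) after saline. Low-dose arrays lay clear of saline and those of the other treatments did not. The log2 fold change was 0.81 ± 0.23 (adjusted p = 0.00583) after low-dose SXC, -0.13 ± 0.23 (adjusted p = 0.637) after high-dose SXC and 0.16 ± 0.23 (adjusted p = 0.556) after valsartan, and the low-dose call was lost with saline as 3 averages, at 0.80 (adjusted p = 0.059). The second Kcnh2 probe rose in all 3 comparisons, by 1.48 ± 0.27 (adjusted p = 7.99e-05) after low-dose SXC, 1.50 ± 0.27 (adjusted p = 3.57e-05) after high-dose SXC and 1.55 ± 0.27 (adjusted p = 2.33e-05) after valsartan. Kcnc4, a Shaw-related subunit with fast kinetics, lay from -4.56 to -3.04 (median -4.35) after low-dose SXC, from -3.42 to -0.87 (median -2.33) after high-dose SXC, from -3.60 to -1.11 (median -2.92) after valsartan and from -4.68 to -4.27 (median -4.50) after saline. High-dose and valsartan arrays lay clear of saline. The Kcnc4 probe was above background on 21 arrays, and each array that missed it was a high-dose or valsartan array. On valsartan array 1 Kcnc4 lay at -3.60, where the median of probes above background on no array was -3.77. The lowest level above background on that array was -1.60. The part of the faint-signal level in the Kcnc4 rises was not tested. Kcnc4 changed by 0.49 ± 0.37 (adjusted p = 0.305) after low-dose SXC, 2.21 ± 0.37 (adjusted p = 1.65e-05) after high-dose SXC and 1.73 ± 0.37 (adjusted p = 0.000289) after valsartan. With the detector gain as a block the change was 1.24 (adjusted p = 0.0563) after high-dose SXC and 0.29 (adjusted p = 0.826) after valsartan. For Kcnh1, another ether-a-go-go channel, the change was 0.50 ± 0.43 (adjusted p = 0.37) after low-dose SXC, 2.14 ± 0.43 (adjusted p = 0.000141) after high-dose SXC and 1.20 ± 0.43 (adjusted p = 0.0184) after valsartan, and with the gain as a block it was 1.17 (adjusted p = 0.135) after high-dose SXC and -0.25 (adjusted p = 0.878) after valsartan. The valsartan call of Kcnh1 was made under 9 of 14 alternatives, and the Kcnh1 probe was above background on 20 arrays. Kcna7 and Kcnh4 were likewise called after high-dose SXC and valsartan and not after low-dose SXC. Kcna7 rose by 1.13 after high-dose SXC and 0.91 after valsartan on the log2 scale, and Kcnh4 by 1.71 and 1.37. The Kcna7 probe was above background on 21 arrays and the Kcnh4 probe on 24. Each array that missed either was a high-dose or valsartan array. The part of the faint-signal level in the Kcna7 and Kcnh4 rises was not tested.

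Kcna5, a delayed rectifier classically described in arterial muscle, did not pass the test. It was faint, above background on all 8 saline, 4 low-dose, 1 high-dose and 1 valsartan arrays. It lay from -6.08 to -4.56 (median -5.51) after low-dose SXC, from -6.44 to -2.97 (median -5.54) after high-dose SXC, from -5.79 to 0.25 (median -4.65) after valsartan and from -4.69 to -3.67 (median -4.63) after saline. The groups overlapped, and the log2 fold change was -1.12 ± 0.64 (adjusted p = 0.172) after low-dose SXC, -0.98 ± 0.64 (adjusted p = 0.195) after high-dose SXC and 0.39 ± 0.64 (adjusted p = 0.615) after valsartan.

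**Figure D2:**
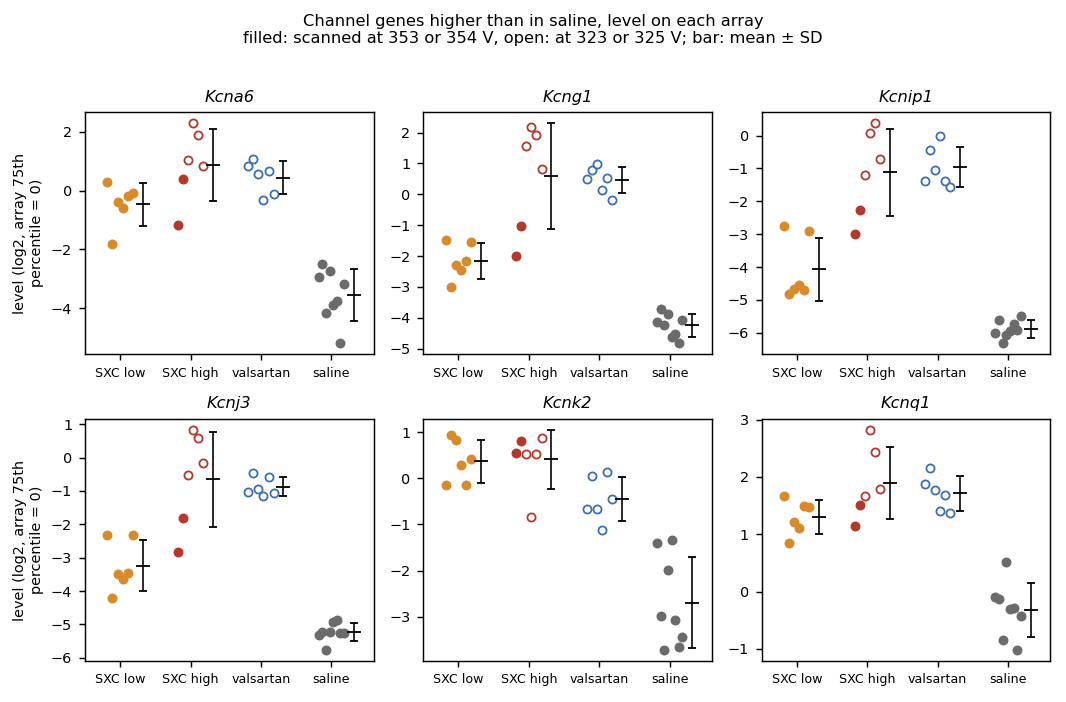
Level (log2 signal minus the array's 75th percentile, vertical axis) of Kcna6, Kcng1, Kcnip1, Kcnj3, Kcnk2 and Kcnq1 on each array, by group (low-dose SXC, high-dose SXC, valsartan, saline, left to right). Filled points are arrays scanned at the higher detector gain and open points those at the lower gain, and bars give the mean ± SD. For each of these genes the treated arrays of every group lay above the highest saline array.

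Sequence upstream of the genes was read from RefSeq promoter windows (GRCr8), of which 61 of the 90 genes and 23 of the 37 genes with a steady probe had one. The 250 bases before the annotated start are shown for Kcna6 and Kcnip1, which rose after all 3 treatments, for Kcnj8, an arterial channel that also rose, and for Kcns3, an arterial channel that was called in no comparison. All 4 lie on the minus strand and are written 5′ to 3′ in lower case, with the GC box GGGCGG, or its reverse complement CCGCCC, in capitals. They come from chr4:161262353-161262602 for Kcna6, chr10:19093026-19093275 for Kcnip1, chr4:177246549-177246798 for Kcnj8 and chr6:39584106-39584355 for Kcns3.
Kcna6: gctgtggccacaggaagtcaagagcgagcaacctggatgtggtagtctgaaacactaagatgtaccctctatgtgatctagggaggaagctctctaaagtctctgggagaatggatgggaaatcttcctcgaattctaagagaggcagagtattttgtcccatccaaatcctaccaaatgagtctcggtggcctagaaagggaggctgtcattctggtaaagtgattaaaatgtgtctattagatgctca
Kcnip1: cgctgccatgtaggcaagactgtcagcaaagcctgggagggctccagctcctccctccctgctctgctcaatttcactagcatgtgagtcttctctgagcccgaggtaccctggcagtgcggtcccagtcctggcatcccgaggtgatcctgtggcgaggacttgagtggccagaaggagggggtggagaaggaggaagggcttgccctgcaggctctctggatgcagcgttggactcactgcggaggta
Kcnj8: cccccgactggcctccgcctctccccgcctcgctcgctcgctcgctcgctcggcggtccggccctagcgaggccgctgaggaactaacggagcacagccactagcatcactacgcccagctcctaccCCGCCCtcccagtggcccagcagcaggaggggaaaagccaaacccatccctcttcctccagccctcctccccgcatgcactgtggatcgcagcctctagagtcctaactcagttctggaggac
Kcns3: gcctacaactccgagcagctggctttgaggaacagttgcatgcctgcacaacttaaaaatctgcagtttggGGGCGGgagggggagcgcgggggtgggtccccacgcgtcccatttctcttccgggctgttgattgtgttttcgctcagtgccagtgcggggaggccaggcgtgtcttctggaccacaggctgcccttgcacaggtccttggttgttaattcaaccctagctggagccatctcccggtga
The windows of Kcna6 and Kcnip1 held no GC box, and those of Kcnj8 and Kcns3 held 1 each, 123 to 118 and 179 to 174 bases before the start. Searched on both strands, the GC box was found in 30 of 61 Kcn windows (49.2%) and 11 of 23 windows of steady genes (47.8%), beside 32.4% of all 27457 windows of this length. The median GC content was 59.6% over the Kcn windows, 59.2% over those of steady genes and 52% over all windows. The TATA box TATAAA was found in 3.28% of Kcn windows and 13.1% of all windows. The cyclic AMP response element TGACGTCA was found in none of the Kcn windows and 1.7% of all, and the CArG box, bound by serum response factor in smooth muscle genes, in none of the Kcn windows and 1.5% of all. These matches describe the letters only.

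Silent voltage-gated subunits had 7 steady probes, of which 3 rose after low-dose SXC, 5 after high-dose SXC and 3 after valsartan, with none lower. Kcng1, which joins delayed rectifiers and changes their inactivation, lay from -3.01 to -1.47 (median -2.23) after low-dose SXC, from -2.00 to 2.19 (median 1.20) after high-dose SXC, from -0.19 to 1.00 (median 0.52) after valsartan and from -4.82 to -3.72 (median -4.17) after saline. No treated array overlapped the saline range. The log2 fold change was 2.08 ± 0.46 (adjusted p = 0.000722) after low-dose SXC, 4.83 ± 0.46 (adjusted p = 4.85e-09) after high-dose SXC and 4.70 ± 0.46 (adjusted p = 6.06e-09) after valsartan. A second Kcng1 probe rose by 1.55 ± 0.25 (adjusted p = 2.01e-05) after low-dose SXC, 2.24 ± 0.25 (adjusted p = 4.9e-08) after high-dose SXC and 2.29 ± 0.25 (adjusted p = 3.14e-08) after valsartan. Kcns2, another modifier of delayed rectifiers, lay from -0.63 to 0.37 (median -0.40) after low-dose SXC, from 0.04 to 0.86 (median 0.14) after high-dose SXC, from -0.01 to 1.85 (median 1.38) after valsartan and from -3.00 to -0.95 (median -1.75) after saline, again with no overlap with saline. It changed by 1.58 ± 0.31 (adjusted p = 0.000202) after low-dose SXC, 2.18 ± 0.31 (adjusted p = 1.76e-06) after high-dose SXC and 2.92 ± 0.31 (adjusted p = 2.06e-08) after valsartan.

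Kcns3, a silent subunit described in arterial muscle, did not pass the test and lay from -1.97 to -0.88 (median -1.43) after low-dose SXC, from -3.11 to -1.57 (median -1.92) after high-dose SXC, from -2.66 to -1.21 (median -1.59) after valsartan and from -1.95 to -1.27 (median -1.83) after saline. It differed from saline by 0.25 ± 0.24 (adjusted p = 0.422) after low-dose SXC, -0.36 ± 0.24 (adjusted p = 0.205) after high-dose SXC and -0.03 ± 0.24 (adjusted p = 0.916) after valsartan. Kcng3 varied most among saline arrays, at -0.90, -1.61 and -1.42 on arrays 5 to 7 and from -5.70 to -4.89 on the other 5. It was called after high-dose SXC alone, with 1.30 ± 0.66 (adjusted p = 0.124) after low-dose SXC, 2.48 ± 0.66 (adjusted p = 0.0025) after high-dose SXC and 0.66 ± 0.66 (adjusted p = 0.401) after valsartan, and that call was lost with the gain as a block, at 2.35 (adjusted p = 0.0797). Kcng2 rose after high-dose SXC by 1.38 ± 0.46 (adjusted p = 0.0126), and the steady Kcnv2 probe was called in none of the comparisons with saline. The Kcng2 probe was above background on 22 arrays, and each array that missed it was a high-dose or valsartan array. A second, faint Kcnv2 probe was called higher after low-dose SXC, high-dose SXC and valsartan, at 1.89, 1.90 and 3.78. That probe was above background on 4 low-dose and 2 valsartan arrays and on no saline or high-dose array. Its high-dose value therefore compares groups without signal above background.

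Among accessory subunits of voltage-gated channels, 2 of 4 steady probes rose in each comparison. Kcnip1, a calcium-binding protein that brings Shal channels to the cell surface, lay from -4.82 to -2.76 (median -4.61) after low-dose SXC, from -3.00 to 0.37 (median -0.95) after high-dose SXC, from -1.55 to -0.02 (median -1.21) after valsartan and from -6.31 to -5.47 (median -5.93) after saline. Each treated group lay above saline without overlap. The log2 fold change was 1.81 ± 0.43 (adjusted p = 0.00155) after low-dose SXC, 4.76 ± 0.43 (adjusted p = 2.49e-09) after high-dose SXC and 4.91 ± 0.43 (adjusted p = 1.23e-09) after valsartan, and with normexp background correction that of Kcnip1 was 1.04 after low-dose SXC and 3.10 after high-dose SXC. Kcnab1, a beta subunit that speeds inactivation of Shaker channels and is expressed in arterial muscle, lay from 2.25 to 2.41 (median 2.34) after low-dose SXC, from 1.48 to 2.07 (median 1.67) after high-dose SXC, from 1.33 to 2.39 (median 1.58) after valsartan and from -0.45 to 1.58 (median 1.22) after saline. Low-dose arrays did not overlap saline, while the other treated groups did. It rose by 1.52 ± 0.26 (adjusted p = 3.91e-05) after low-dose SXC, 0.91 ± 0.26 (adjusted p = 0.00411) after high-dose SXC and 0.86 ± 0.26 (adjusted p = 0.00624) after valsartan, with the valsartan call lost at 1.29 (adjusted p = 0.0801) with the gain as a block. By contrast a second, fainter Kcnab1 probe was not called and lay below saline in the fit, at -0.75, -1.24 and -0.58 after low-dose SXC, high-dose SXC and valsartan. Kcne4, a single-span subunit that acts on Kcnq1, was not called and lay from -4.05 to -3.18 (median -3.63) after low-dose SXC, from -3.40 to -0.45 (median -3.19) after high-dose SXC, from -4.18 to -3.23 (median -3.91) after valsartan and from -3.75 to -2.86 (median -3.31) after saline. Its change was -0.27 ± 0.32 (adjusted p = 0.54) after low-dose SXC, 0.63 ± 0.32 (adjusted p = 0.0946) after high-dose SXC and -0.47 ± 0.32 (adjusted p = 0.211) after valsartan.

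The calcium- and sodium-activated pore subunits had 5 steady probes, 3 of them for Kcnma1, and none was called after low-dose SXC. After high-dose SXC 3 rose and after valsartan 3 rose. The brightest Kcnma1 probe lay from -3.74 to -2.07 (median -2.78) after low-dose SXC, from -2.72 to 0.69 (median -0.94) after high-dose SXC, from -2.47 to -1.84 (median -2.13) after valsartan and from -4.53 to -1.03 (median -3.81) after saline. The groups overlapped. Its log2 fold change was 0.53 ± 0.49 (adjusted p = 0.419) after low-dose SXC, 2.32 ± 0.49 (adjusted p = 0.000282) after high-dose SXC and 1.20 ± 0.49 (adjusted p = 0.0385) after valsartan. The second probe changed by 0.46 ± 0.39 (adjusted p = 0.374) after low-dose SXC, 1.35 ± 0.39 (adjusted p = 0.00452) after high-dose SXC and 1.47 ± 0.39 (adjusted p = 0.0023) after valsartan, and the third by 0.14 ± 0.25 (adjusted p = 0.686) after low-dose SXC, 0.24 ± 0.25 (adjusted p = 0.429) after high-dose SXC and -0.02 ± 0.25 (adjusted p = 0.958) after valsartan. The 3 probes of the BK pore gene therefore did not give 1 answer, and with the detector gain as a block the brightest probe gave 0.92 (adjusted p = 0.292) after high-dose SXC and -0.89 (adjusted p = 0.527) after valsartan. The valsartan call of Kcnma1 was made under 6 of 14 alternatives.

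Kcnn3, a small-conductance calcium-activated channel of endothelium and nerve, lay from -1.37 to -0.60 (median -1.18) after low-dose SXC, from -1.86 to -0.39 (median -0.90) after high-dose SXC, from -2.08 to -1.07 (median -1.52) after valsartan and from -1.55 to -0.89 (median -1.24) after saline. The groups overlapped, and the log2 fold change was 0.15 ± 0.21 (adjusted p = 0.602) after low-dose SXC, 0.18 ± 0.21 (adjusted p = 0.459) after high-dose SXC and -0.32 ± 0.21 (adjusted p = 0.188) after valsartan. Kcnt2, a sodium-activated channel, rose after high-dose SXC and valsartan, by 1.17 ± 0.21 (adjusted p = 3.28e-05) and 0.51 ± 0.21 (adjusted p = 0.0383). The Kcnt2 probe was above background on 21 arrays, and each array that missed it was a high-dose or valsartan array. On valsartan array 1 Kcnt2 lay at -3.68, where the median of probes above background on no array was -3.77. The part of the faint-signal level in the Kcnt2 rises was not tested.

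The BK channel's accessory subunits differed from each other in direction. Kcnmb1, which raises the calcium sensitivity of the smooth muscle BK channel, lay from -1.50 to -0.91 (median -1.09) after low-dose SXC, from -1.69 to -1.06 (median -1.22) after high-dose SXC, from -1.78 to -0.65 (median -1.54) after valsartan and from -2.50 to -0.66 (median -0.74) after saline. Treated and saline arrays overlapped, with a log2 fold change of 0.08 ± 0.26 (adjusted p = 0.83) after low-dose SXC, -0.07 ± 0.26 (adjusted p = 0.841) after high-dose SXC and -0.20 ± 0.26 (adjusted p = 0.52) after valsartan. Kcnmb2, which inactivates the channel and is described mainly in neurons and chromaffin cells, lay from -1.85 to 0.18 (median -0.54) after low-dose SXC, from -1.14 to 1.96 (median 0.79) after high-dose SXC, from 0.07 to 2.01 (median 0.71) after valsartan and from -4.37 to -1.23 (median -2.55) after saline. High-dose and valsartan arrays did not overlap saline, and low-dose arrays did. It rose by 2.16 ± 0.46 (adjusted p = 0.000459) after low-dose SXC, 3.35 ± 0.46 (adjusted p = 9.97e-07) after high-dose SXC and 3.54 ± 0.46 (adjusted p = 4.34e-07) after valsartan, the last of which became 2.14 (adjusted p = 0.0821) with the gain as a block. The second Kcnmb2 probe rose by 1.28 after high-dose SXC and was not called after low-dose SXC (0.46) or valsartan (0.65). Kcnmb4, a subunit best known from the brain that slows the channel, fell after high-dose SXC alone and lay from -2.95 to -1.63 (median -2.43) after low-dose SXC, from -3.60 to -2.56 (median -3.00) after high-dose SXC, from -3.92 to -1.20 (median -2.72) after valsartan and from -2.35 to -1.64 (median -2.01) after saline. Its log2 fold change was -0.39 ± 0.32 (adjusted p = 0.361) after low-dose SXC, -1.05 ± 0.32 (adjusted p = 0.00744) after high-dose SXC and -0.52 ± 0.32 (adjusted p = 0.17) after valsartan, and the high-dose call was lost with saline as 3 averages, at -1.05 (adjusted p = 0.078), and with the gain as a block, at -0.60 (adjusted p = 0.363). The high-dose value of Kcnmb4 also moved to -2.09 with quantile normalisation, -0.43 with normexp and -2.12 with the values the authors deposited. Kcnmb3 rose after high-dose SXC and valsartan, by 1.40 ± 0.40 (adjusted p = 0.00379) and 1.09 ± 0.40 (adjusted p = 0.0207). The Kcnmb3 probe was above background on 21 arrays, and each array that missed it was a high-dose or valsartan array. On valsartan array 1 Kcnmb3 lay at -3.02, where the lowest level above background was -1.60. The part of the faint-signal level in the Kcnmb3 rises was not tested. Lrrc38, another accessory protein of the BK channel, which lies outside the Kcn symbols, lay from 2.15 to 3.83 (median 2.55) after low-dose SXC, from 3.31 to 5.15 (median 4.43) after high-dose SXC, from 4.12 to 4.84 (median 4.52) after valsartan and from 0.77 to 2.21 (median 0.95) after saline. It rose by 1.75 (adjusted p = 2.12e-05) after low-dose SXC, 3.32 (adjusted p = 9.9e-10) after high-dose SXC and 3.38 (adjusted p = 5.58e-10) after valsartan.

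**Figure D3:**
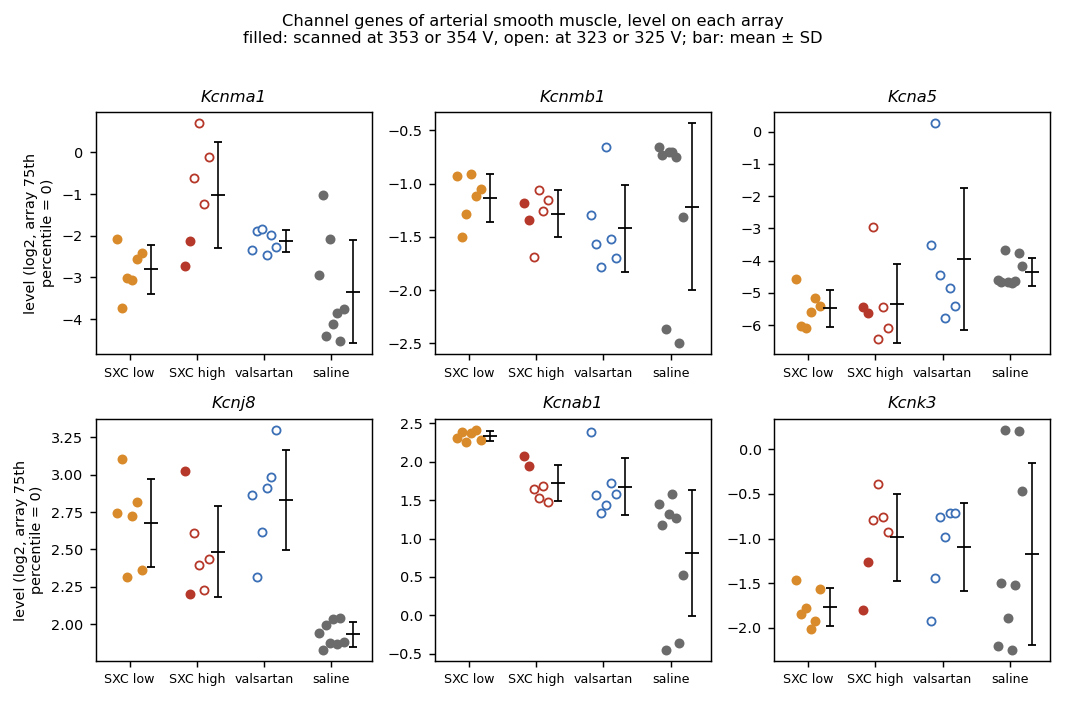
Level (log2 signal minus the array's 75th percentile, vertical axis) of Kcnma1, Kcnmb1, Kcna5, Kcnj8, Kcnab1 and Kcnk3 on each array, by group (low-dose SXC, high-dose SXC, valsartan, saline, left to right), with the mean ± SD. Filled points were scanned at the higher and open points at the lower detector gain. Kcnj8 of each treated group lay above all saline arrays, while Kcnmb1, Kcna5 and Kcnk3 overlapped saline in each group.

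Inward rectifiers, which pass current near the resting potential, had 4 steady probes of 18, and 3, 2 and 3 of these rose after low-dose SXC, high-dose SXC and valsartan. Kcnj8, the pore of the ATP-sensitive channel of arterial muscle, lay from 2.31 to 3.10 (median 2.73) after low-dose SXC, from 2.20 to 3.03 (median 2.42) after high-dose SXC, from 2.32 to 3.30 (median 2.89) after valsartan and from 1.83 to 2.04 (median 1.91) after saline. No treated array reached into the saline range. It rose by 0.75 ± 0.14 (adjusted p = 0.000181) after low-dose SXC, 0.55 ± 0.14 (adjusted p = 0.00208) after high-dose SXC and 0.90 ± 0.14 (adjusted p = 9.42e-06) after valsartan, and the high-dose call of Kcnj8 was lost with the percentile taken over probes in place of spots, at 0.40 (adjusted p = 0.0502). Abcc9, its sulfonylurea receptor partner, was tested and called in none of the 3 comparisons. Kcnj3, a G-protein-gated channel of heart atrium and neurons, lay from -4.22 to -2.32 (median -3.47) after low-dose SXC, from -2.85 to 0.82 (median -0.35) after high-dose SXC, from -1.14 to -0.47 (median -0.99) after valsartan and from -5.76 to -4.87 (median -5.23) after saline, also without overlap. Its log2 fold change was 1.99 ± 0.41 (adjusted p = 0.000337) after low-dose SXC, 4.57 ± 0.41 (adjusted p = 1.8e-09) after high-dose SXC and 4.35 ± 0.41 (adjusted p = 3.18e-09) after valsartan, and with normexp that of Kcnj3 after low-dose SXC was 1.20. Kcnj1, the renal outer medullary channel, rose by 1.43 ± 0.44 (adjusted p = 0.0115) after low-dose SXC and 1.95 ± 0.44 (adjusted p = 0.000571) after valsartan and changed by 0.79 ± 0.44 (adjusted p = 0.13) after high-dose SXC. Kcnj9 was not called.

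Two-pore channels carry background potassium current, and 3 of 5 steady probes rose in each comparison, with 1 lower after valsartan. Kcnk2, a channel opened by stretch and fatty acids, lay from -0.16 to 0.94 (median 0.35) after low-dose SXC, from -0.84 to 0.88 (median 0.54) after high-dose SXC, from -1.12 to 0.14 (median -0.56) after valsartan and from -3.72 to -1.33 (median -3.03) after saline. The treated arrays lay above saline in each group. The log2 fold change was 3.06 ± 0.36 (adjusted p = 2.57e-07) after low-dose SXC, 3.11 ± 0.36 (adjusted p = 8.84e-08) after high-dose SXC and 2.25 ± 0.36 (adjusted p = 9.04e-06) after valsartan. A second Kcnk2 probe was above background on no saline array and was at least 2.71-fold higher after low-dose SXC and 6.50-fold higher after high-dose SXC, where 6 of 6 and 5 of 6 arrays were above background. On valsartan arrays 1 of 6 was above background, and no bound is given. Such a bound sets the mean of the brighter group against the faintest signal still above background on each saline array. Another Kcnk2 probe, above background on all 8 saline arrays, changed far less than the brightest one. It rose by 0.98 after high-dose SXC and was not called after low-dose SXC (0.25) or valsartan (0.63).

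Kcnk16, a channel described in the pancreas, lay from -4.23 to -2.36 (median -3.53) after low-dose SXC, from -4.03 to -1.79 (median -2.49) after high-dose SXC, from -3.47 to 0.35 (median -2.86) after valsartan and from -5.16 to -4.46 (median -4.95) after saline. It rose without overlap, by 1.46 ± 0.44 (adjusted p = 0.00916) after low-dose SXC, 2.22 ± 0.44 (adjusted p = 0.000117) after high-dose SXC and 2.43 ± 0.44 (adjusted p = 4e-05) after valsartan. With the gain as a block it was 1.43 (adjusted p = 0.0837) after high-dose SXC and 1.25 (adjusted p = 0.33) after valsartan, and with saline as 3 averages 1.39 (adjusted p = 0.116) after low-dose SXC. With normexp Kcnk16 was 0.97 after low-dose SXC. The Kcnk16 probe was above background on 23 arrays, and each array that missed it was a high-dose or valsartan array. Kcnk12, which gives no current alone in expression systems, lay from -3.41 to -2.43 (median -2.84) after low-dose SXC, from -3.06 to -1.26 (median -2.72) after high-dose SXC, from -4.86 to -2.16 (median -4.00) after valsartan and from -4.93 to -4.54 (median -4.71) after saline. Both SXC groups lay clear of saline, and valsartan overlapped it. The Kcnk12 probe was above background on 21 arrays. The log2 fold change was 1.85 ± 0.34 (adjusted p = 0.000109) after low-dose SXC, 2.32 ± 0.34 (adjusted p = 3.24e-06) after high-dose SXC and 0.86 ± 0.34 (adjusted p = 0.0342) after valsartan, and the valsartan call was made under 6 of 14 alternatives, which ran from 0.30 (adjusted p = 0.824, gain as a block) to 1.54 (normexp) for Kcnk12. With normexp Kcnk12 was 1.11 after low-dose SXC. Kcnk6 fell after valsartan and lay from -1.18 to -0.92 (median -1.10) after low-dose SXC, from -1.57 to -0.87 (median -1.38) after high-dose SXC, from -1.86 to -1.45 (median -1.58) after valsartan and from -2.19 to -0.37 (median -0.89) after saline. Its log2 fold change was -0.02 ± 0.21 (adjusted p = 0.948) after low-dose SXC, -0.27 ± 0.21 (adjusted p = 0.269) after high-dose SXC and -0.58 ± 0.21 (adjusted p = 0.0173) after valsartan, and the call was made under 9 of 14 alternatives, with Kcnk6 at -0.27 (adjusted p = 0.721) with the gain as a block. Kcnk3, the acid-sensitive background channel of pulmonary and systemic arteries, was not called and lay from -2.02 to -1.47 (median -1.81) after low-dose SXC, from -1.80 to -0.39 (median -0.86) after high-dose SXC, from -1.92 to -0.71 (median -0.87) after valsartan and from -2.24 to 0.21 (median -1.50) after saline. It changed by -0.59 ± 0.34 (adjusted p = 0.177) after low-dose SXC, 0.19 ± 0.34 (adjusted p = 0.657) after high-dose SXC and 0.08 ± 0.34 (adjusted p = 0.846) after valsartan.

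The channels known in arterial muscle or endothelium had smaller median fold changes than the remaining steady genes, a difference that was not tested. Of 28 such genes listed, 26 were on the array, 13 had a steady probe, 13 had faint probes alone, and 2 had no probe. Of the 13 steady ones, 6 rose after low-dose SXC, 5 rose and 1 fell after high-dose SXC, and 5 rose and 1 fell after valsartan, with a median log2 fold change of 0.35, 0.19 and 0.08. Of all steady probes 29.2%, 35.9% and 34% rose and 47.5%, 62.1% and 64% were called in either direction, so the 6 of 13 called each time were near or below that share. Of the other 24 steady genes, 10 rose and 1 fell, 18 rose and 1 fell, and 17 rose and 1 fell in the same order, with medians of 0.91, 1.81 and 1.20.

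Several of the genes with large rises are best known from neurons or heart, and markers of those tissues were read beside them. Of 11 tested neuron and Schwann cell markers, 2 rose after low-dose SXC, 7 rose after high-dose SXC, and 3 rose and 1 fell after valsartan, beside 22.5%, 35.7% and 33.2% of all tested probes higher. The low-dose and valsartan counts were thus at or below that share. Their summed level ran from 1.23 to 2.83 after low-dose SXC, from 2.06 to 4.57 after high-dose SXC, from 2.95 to 3.98 after valsartan and from 0.72 to 2.46 after saline. Sox10, a transcription factor of Schwann cells, rose by 2.25, 4.36 and 4.11 on the log2 scale after low-dose SXC, high-dose SXC and valsartan. The synaptic protein gene Syt1 was above background on no array of any group, Nefl on none of the low-dose, valsartan or saline arrays, and Dbh on none of the low-dose, high-dose or saline arrays. Of 7 tested heart muscle markers, 2 rose and 1 fell after low-dose SXC, 4 rose and 1 fell after high-dose SXC, and 2 rose and 1 fell after valsartan. Their summed level ran from 4.06 to 5.91 after low-dose SXC, from 3.93 to 5.76 after high-dose SXC, from 4.36 to 5.60 after valsartan and from 0.97 to 4.49 after saline, and Tnni3 was above background on no treated array. This sum is mostly that of 1 gene, Actc1, with a mean level of 5.27, 5.08, 5.17 and 2.68 in that order of groups. Every other heart marker averaged -1.40 or below in each group. The part of nerve or heart tissue in the channel results was not tested.

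The detector gain moved with 4 of the largest rises. On high-dose arrays 1 and 2, scanned at the higher gain, Kcng1 lay at -2.00 and -1.02, and on high-dose arrays 3 to 6, scanned at the lower gain, it lay between 0.83 and 2.19. With the gain as a block, the log2 fold change of Kcng1 was 2.73 (adjusted p = 1.41e-05) after high-dose SXC and 1.56 (adjusted p = 0.0332) after valsartan. For Kcnj3 it was 2.90 (adjusted p = 1.39e-05) and 1.84 (adjusted p = 0.0182), and for Kcnip1 3.25 (adjusted p = 4.01e-05) and 2.64 (adjusted p = 0.00716). Kcna6 gave 3.14 (adjusted p = 0.000242) after high-dose SXC and 2.08 (adjusted p = 0.0582) after valsartan. Kcnk2 moved little, to 3.38 (adjusted p = 5.59e-05) and 2.65 (adjusted p = 0.0107). Because every valsartan array was at the lower gain and every saline array at the higher, the gain block rests on the high-dose arrays, which had both. The low-dose comparison had 1 gain alone, and there Kcna6, Kcng1, Kcnip1, Kcnj3 and Kcnk2 all rose. Low-dose arrays 1 and 6 were scanned on another day than arrays 2 to 5. Kcnip1 lay at -2.76 and -2.91 on arrays 1 and 6, and from -4.82 to -4.55 on arrays 2 to 5. Kcnj3 lay at -2.32 on arrays 1 and 6, and from -4.22 to -3.45 on the rest. Kcna6 and Kcng1 were also higher on arrays 1 and 6, while Kcnk2 overlapped. The part of scan day in the low-dose rises was not tested.

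Between the 2 doses of SXC, 20 of 83 Kcn probes were higher and 1 was lower after the high dose, where 22.2% of all tested probes were called, 16.8% higher and 5.41% lower. The largest differences of high over low dose were in Kcnip1, 2.95 ± 0.46 (adjusted p = 0.000198), Kcng1, 2.74 ± 0.49 (adjusted p = 0.000483), and Kcnj3, 2.58 ± 0.44 (adjusted p = 0.000297), and the 1 lower probe was Kcnh2, -0.95 ± 0.24 (adjusted p = 0.00763). These calls did not hold within a scan day. On the day that held arrays of both doses, with 2 arrays each and no test, Kcng1 averaged -1.51 after the high dose and -1.52 after the low dose. Kcnj3 averaged -2.33 after the high dose and -2.32 after the low dose, and Kcnip1 averaged -2.64 after the high dose and -2.84 after the low dose. No Kcn probe was called with detector gain or scan day as a block, where 4 and 1 had an unadjusted p under 0.05 in limma. Neither fit called any of all 23744 tested probes in this comparison. A dose effect on these channels and the scanner setting therefore cannot be told apart on most of the arrays.

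Valsartan against low-dose SXC gave 20 Kcn probes higher and 3 lower, where 25.2% of all tested probes were called, 13.6% higher and 11.5% lower. Kcnip1 differed by 3.10 ± 0.46 (adjusted p = 4.96e-05), Kcng1 by 2.62 ± 0.49 (adjusted p = 0.000521), Kcnj3 by 2.36 ± 0.44 (adjusted p = 0.000456) and Kcnk12 by -0.99 ± 0.37 (adjusted p = 0.0484), where Kcnk12 turned to 0.43 with normexp background correction. With the gain as a block Kcng1 and Kcnj3 turned to -0.52 (adjusted p = 0.953) and -0.15 (adjusted p = 0.99). In the same fit 1 Kcn probe was called, and with scan day as a block none was, with 7 at an unadjusted p under 0.05 in limma. Of all 23744 tested probes, 3 were called in each of these fits. All valsartan arrays were scanned at the lower gain and all low-dose arrays at the higher, so drug and gain cannot be told apart here.

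Valsartan against high-dose SXC gave 2 Kcn probes lower and none higher, where 1.37% of all tested probes were called, 0.265% higher and 1.1% lower, and 17 Kcn probes had an unadjusted p under 0.05. The called probes were Kcnk12, -1.46 ± 0.37 (adjusted p = 0.0447), and the second probe of Kcnq1, -1.41 ± 0.36 (adjusted p = 0.0488). Kcna6 differed by -0.43 ± 0.48 (adjusted p = 0.683), Kcng1 by -0.12 ± 0.49 (adjusted p = 0.925) and Kcnip1 by 0.15 ± 0.46 (adjusted p = 0.899), none of them called. With scan day as a block, where 6 valsartan arrays shared a day with 2 high-dose arrays, 4 Kcn probes were called. In that fit 399 of all 23744 tested probes were called. On the log2 scale Kcnma1 was 1.77 lower after valsartan, Kcnj11 2.77 lower (with valsartan array 1 left out for an outlier spot), Kcnf1 2.23 lower and the second Kcna6 probe 1.34 higher. The Kcnf1 probe was above background on 3 high-dose arrays and on no valsartan array. No bound on the size of its difference could be set.

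**Figure D4:**
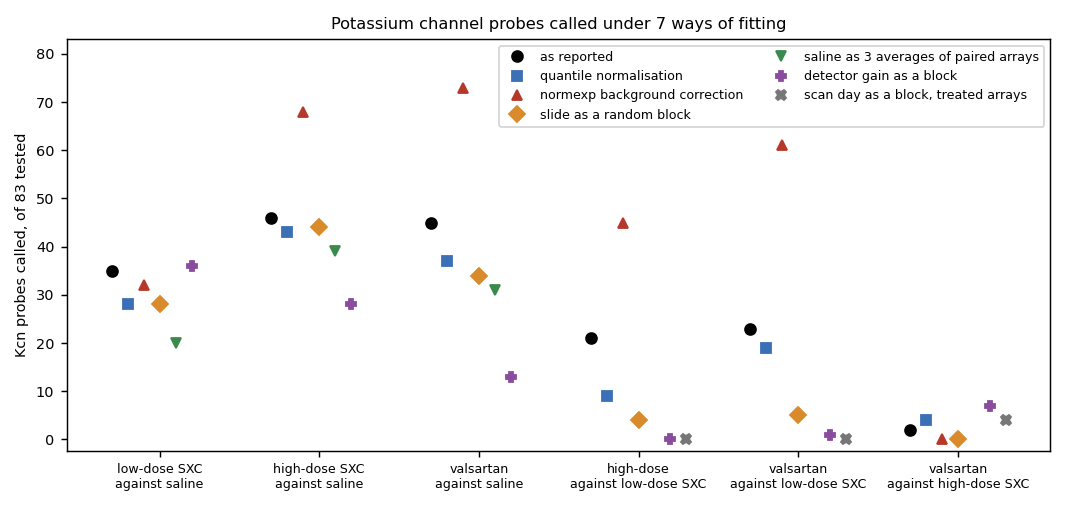
Number of Kcn probes called (of 83 tested, vertical axis) in each of the 6 comparisons under 7 ways of fitting the data. The 3 comparisons with saline gave 13 to 73 called probes across these fits, and the 2 comparisons of high-dose SXC or valsartan with low-dose SXC fell to 0 and 1 with the detector gain as a block. In those 2 comparisons that fit called 0 and 3 of all 23744 tested probes.

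Saline arrays differed among themselves in channels that moved with fat and muscle marker signal. On saline arrays 3, 7 and 8 Kcnmb1 lay at -2.36, -2.50 and -1.31, and on the other 5 between -0.75 and -0.66. Kcnab1 was also low there, at -0.45, -0.36 and 0.52, against 1.17 to 1.58 on the others. Kcnk3 was high on the same arrays, at 0.21, 0.20 and -0.47 against -2.24 to -1.50. Summed white fat markers on arrays 3, 7 and 8 were 7.64, 7.57 and 6.88, against 3.44 to 5.55 on the others. Summed smooth muscle markers on arrays 3 and 7 were 7.47 and 7.10, against 8.12 to 8.63 on the other saline arrays. The part of fat in the saline spread of these 3 genes was not tested.

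**Figure D5:**
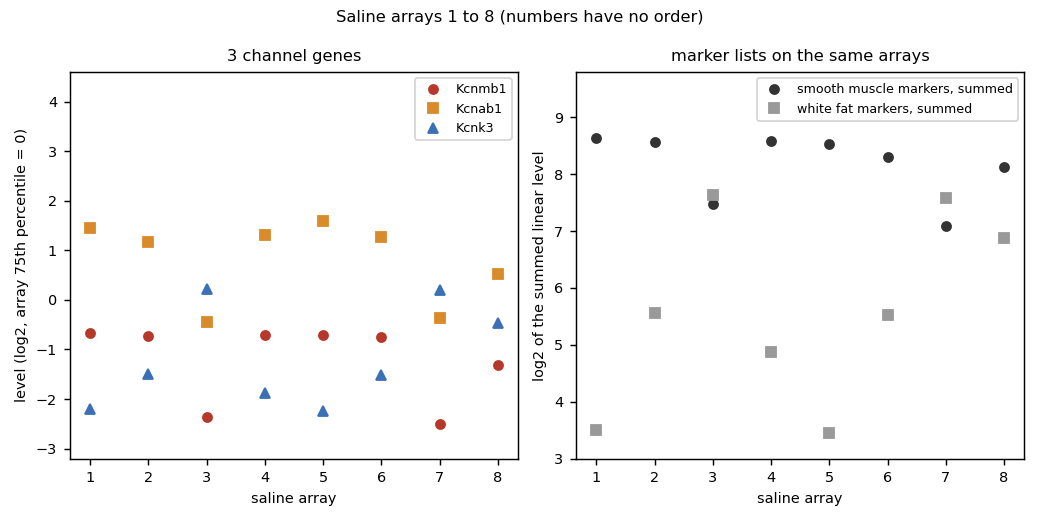
Level of Kcnmb1, Kcnab1 and Kcnk3 and summed level of the smooth muscle and white fat markers (vertical axis, log2 signal minus the 75th percentile) on each of the 8 saline arrays (horizontal axis). Arrays 3, 7 and 8 have lower Kcnmb1 and Kcnab1, higher Kcnk3 and more white fat signal than the other 5.

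Different probes of 1 gene often gave different answers. Of 14 Kcn genes with more than 1 tested probe, all probes had the same call in 7 after low-dose SXC, in 8 after high-dose SXC and in 5 after valsartan. Opposite calls occurred for 2 genes, Kcnk13 among them, after high-dose SXC and after valsartan, and for none after low-dose SXC. Both Kcnk13 probes were above background on no valsartan array, and the brighter Kcnk13 probe was at least 1.15-fold lower after valsartan. The median spread between a gene's probes was 1.41, 2.08 and 1.69 on the log2 scale. Among the 39 faint probes tested, 7 rose and 6 fell after low-dose SXC, 13 rose and 2 fell after high-dose SXC, and 15 rose and 1 fell after valsartan. Of all tested probes 22.5%, 35.7% and 33.2% rose and 17.1%, 21.4% and 25.2% fell. The share over all faint probes alone was not computed. The faint-signal level of the arrays moved the same way, since the median level of probes above background on no array ran from -8.79 to -7.67 after low-dose SXC, from -8.70 to -3.21 after high-dose SXC, from -6.08 to -3.77 after valsartan and from -8.79 to -8.05 after saline. A bound on size could be set for few of these. Kcnip4, another channel-interacting protein, was above background on no treated array and on all 8 saline arrays, and was at least 4.06-fold lower after low-dose SXC and 1.02-fold lower after high-dose SXC. A second Kcnv2 probe, above background on no saline array, was at least 1.81-fold higher after low-dose SXC, where 4 of 6 arrays were above background. It was above background on 2 of 6 valsartan arrays, and no bound is given there.

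Genes that work with potassium channels but carry other symbols were also read. Of 30 such genes listed, 24 were tested. Of these, 8 rose and 4 fell after low-dose SXC, 9 rose and 5 fell after high-dose SXC, and 10 rose and 5 fell after valsartan, with medians of 0.01, 0.05 and 0.27. Of all tested probes 39.6%, 57.1% and 58.4% were called, so the partner counts were near or slightly above the background. Ano1, a calcium-activated chloride channel that depolarises arterial muscle, lay from 3.29 to 4.23 (median 3.81) after low-dose SXC, from 3.40 to 3.88 (median 3.64) after high-dose SXC, from 3.14 to 4.05 (median 3.54) after valsartan and from 2.00 to 2.90 (median 2.12) after saline, with no overlap with saline. It rose by 1.48 (adjusted p = 3.13e-07) after low-dose SXC, 1.30 (adjusted p = 8.87e-07) after high-dose SXC and 1.26 (adjusted p = 1.31e-06) after valsartan. Itpr1, the calcium release channel opened by inositol trisphosphate, rose by 1.14 (adjusted p = 3.01e-08) after low-dose SXC, 0.62 (adjusted p = 6.51e-05) after high-dose SXC and 0.79 (adjusted p = 2.85e-06) after valsartan. Trpc1, a cation channel subunit, rose by 1.13 (adjusted p = 3.53e-07) after low-dose SXC, 0.63 (adjusted p = 0.000338) after high-dose SXC and 1.09 (adjusted p = 2.5e-07) after valsartan. Cav1, the coat protein of caveolae where BK channels cluster, lay from 6.08 to 6.23 (median 6.12) after low-dose SXC, from 5.54 to 6.08 (median 5.80) after high-dose SXC, from 5.30 to 5.78 (median 5.65) after valsartan and from 6.20 to 6.43 (median 6.33) after saline. It changed by -0.19 (adjusted p = 0.1) after low-dose SXC, -0.53 (adjusted p = 2.89e-05) after high-dose SXC and -0.73 (adjusted p = 3.22e-07) after valsartan. Dpp6, an accessory protein of Shal channels, was above background on no saline or valsartan array and was at least 1.62-fold higher after low-dose SXC and 6.79-fold higher after high-dose SXC, where 6 of 6 and 5 of 6 arrays were above background.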

How the data were processed

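Total RNA of the thoracic aorta was hybridised to 1-colour (Cy3) Agilent rat arrays, 1 per sample, and the authors deposited each scanner output of Agilent Feature Extraction 11.0.1.1, per the file headers. The processed signal used here is a background-corrected spot intensity, per the file headers. The authors also deposited a log2 table, with normalisation not given in the sources used here, which served as an alternative. Each array column matched its own scanner file best in all 26 cases.

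From the intensity, log2 minus each array's 75th percentile over gene spots was computed, spots marked as outliers were dropped, and spots of 1 probe were averaged. A probe was tested if 6 or more of the 26 arrays showed it well above background (23744 probes), with limma 3.58.1 in R 4.3.3 (lmFit, eBayes with a trend, two-sided), all 26 arrays in 1 fit, with Benjamini-Hochberg adjustment over all tested probes and a threshold of 0.05. The steps were tested on simulated data. Symbols came from RefSeq by accession, with 18005 gene probes given 1 symbol and 12362 none. Where a gene had several probes, the brightest was described first.

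The genes named were the markers Kcnma1, Kcnmb1, Kcna5 and Kcna6, the largest rises and falls among called steady probes of each comparison, steady channels of an arterial list, and the brightest, dimmest, most and least variable in saline. The members and lists were chosen with earlier results of these data known. A few further genes were named after their values were seen, and some that the rule names are counted in the totals and not reported here by name. Alternatives covered normalisation, filters, slide, scan day, detector gain, replicate number and left-out arrays, and an offset of 50 was used for normexp. The number of arrays limits the precision. Nothing in the labels ties arrays to shared animals beyond separate extraction, so p-values measure the spread between these samples.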

Additional observations from a re-analysis of the deposited data

Results flagged for a closer look

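Among 112 sets of arrays examined, 1 gene in 1 group each, 7 held an array far from the rest of its group by Dixon's criterion, where chance alone gives 5.6. Kcna5 lay at -2.97 on high-dose SXC array 3, against a group median of -5.54, and at 0.25 on valsartan array 2, against a median of -4.65. Kcne4 lay at -0.45 on high-dose SXC array 3, and Kcns3 at -3.11 on the same array, which also had few probes above background. Kcnh2 lay at 0.73 on high-dose SXC array 6, Kcnk16 at 0.35 on valsartan array 2, and Kcnk2 at -0.84 on high-dose SXC array 4, each apart from the rest of its group.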

How the results depend on the processing

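Counts are of Kcn probes called in limma, and all-probe counts beside them are of 23744 tested probes unless another number is given. Low-dose SXC against saline gave 35 as reported, 22 when only probes above background on at least 20 arrays were tested and 20 with saline as 3 averages. Over all probes these fits called 9408, 7555 of 15368 and 5708. High-dose SXC against saline gave 46 as reported, 77 with no filter on dim probes (117 tested) and 28 with detector gain as a block. The all-probe counts were 13549, 19134 of 30367 and 6505. Valsartan against saline gave 45 as reported, 73 with normexp background correction, 80 with no filter, 29 with the filter at 20 arrays and 13 with gain as a block. The all-probe counts moved too, at 13876, 18292, 20577 of 30367, 9968 of 15368 and 3256. In these 3 comparisons the other alternatives stayed within 1.5 times, and rises outnumbered falls in each. With normexp 31 rose and 1 fell, 66 rose and 2 fell, and 72 rose and 1 fell after low-dose SXC, high-dose SXC and valsartan, with an all-probe median of 0.24, 0.55 and 0.70. With the values the authors deposited, 21 rose and 6 fell, 31 rose and 12 fell, and 26 rose and 11 fell, with an all-probe median of 0.01, -0.21 and -0.27. High-dose against low-dose SXC gave 21, then 9 with quantile normalisation, 45 with normexp, 9 with the authors' deposited table, 46 with no filter, 13 with the filter at 20 arrays, 4 with slide as a random block, 35 without high-dose arrays 1 and 2, and 0 with either gain or scan day as a block (4 and 1 at an unadjusted p under 0.05). In that order the all-probe counts were 5273, 3656, 10770, 3671, 10252 of 30367, 3315 of 15368, 1617, 8433, 0 and 0. Valsartan against low-dose SXC gave 23, then 61 with normexp, 15 with the authors' deposited table, 59 with no filter, 11 with the filter at 20 arrays, 5 with slide, 1 with gain and 0 with scan day as a block (7 unadjusted). In that order the all-probe counts were 5972, 14543, 5647, 13259 of 30367, 3812 of 15368, 1840, 3 and 3. Valsartan against high-dose SXC gave 2, then 4 with quantile normalisation or the authors' deposited table, 1 with the filter at 20 arrays, 7 without high-dose arrays 1 and 2 or with gain as a block, 4 with scan day as a block, 1 with the percentile taken over probes above background on all arrays, and 0 with normexp, no filter, slide or the replicate block (10, 22, 10 and 14 unadjusted).

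With the replicate number as a block, the counts were 32, 48 and 40 against saline and 16, 21 and 0 between treated groups. The all-probe counts were 8090, 12447 and 12584 against saline and 4680, 5416 and 108 between treated groups. Deviations of 36 same-numbered pairs correlated from -0.365 to 0.277, with 6 over 0.1, and 7 of 26 arrays correlated best with their own number, so the samples share only a number.

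Of single genes, Kcna6 turned to -0.50 in high-dose against low-dose SXC with scan day as a block. Kcng1 in valsartan against low-dose SXC turned to -0.52 with gain and -0.73 with scan day as a block, and Kcnj3 to -0.15 and -0.54. Kcnj3 in high-dose against low-dose SXC turned to -0.0093 with scan day as a block. Kcnh1 and Kcnma1 after valsartan against saline turned to -0.25 and -0.89 with gain as a block, and Kcnma1 in high-dose against low-dose SXC to -0.18 with scan day. Kcnk12 in valsartan against low-dose SXC turned to 0.43 with normexp. The causes were not tested. Of 105 gene results, gain as a block ended 26 calls, the reversed ones included. The percentile over probes or over probes on all arrays, and leaving out high-dose array 3 with valsartan array 1 or saline arrays 4 and 8, were chosen after seeing the data.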
